A study of Mus musculus with 5 samples.

Results

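Complement is a system of proteins that tag, lyse or attract cells to microbes and damaged tissue. In the classical and lectin routes, proteases including C1r and C1s or the MASPs cleave C4 and C2, whose fragments join into an enzyme that cleaves C3. The alternative route amplifies the same step with factor B and properdin. Fragments of C3 and C5 act on leukocytes through the receptors C3aR and C5aR1, and membrane inhibitors such as CD55 take the enzymes apart again. The liver makes much of the plasma complement, while epithelium, fibroblasts and macrophages make components locally in the gut. Several complement genes are known acute-phase genes, induced by cytokines that signal through gp130, the receptor subunit that IL-11 shares with IL-6.

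The genes described are 9 complement factors and receptors, C1ra, C4b, C2, C3, Cfb, Cfp, C3ar1, C5ar1 and Cd55, chosen by name from the complement system. They were measured among 32917 features, of which 17945 had a gene symbol, in whole colon of wild-type C57BL/B6 mice, the strain as written in the labels. In the NT-3N group, 3 mice aged 8 weeks were injected intravenously with NT-3N, a modified human IL-11 that activates the IL-11 receptor, and the colon was removed after 3 hr. The Control group was 2 untreated mice, with no vehicle injection named, so the injection and the agonist cannot be told apart. The dose is written as 10 mg in the series record and as 10 μg elsewhere, and the correct unit is not known here. Each mouse gave RNA for 1 one-colour Agilent array, so a group of 2 or 3 arrays is a group of 2 or 3 animals.

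The arrays shared 1 slide and 1 scan time, and the share of probes well above background ran from 70.6% to 72.9%. The 6 epithelial markers were well above background on all 5 arrays, with Epcam between 13.62 and 13.85 on the log2 scale. Of known targets of gp130 signalling, Serpina3n, an acute-phase protease inhibitor, was higher by 3.33 ± 0.12 (log2, SE; limma adjusted p = 0.00266) and Socs3, a feedback inhibitor of the same receptors, by 2.71 ± 0.18 (adjusted p = 0.00875). Stat3, the transcription factor of this route, was higher by 0.74 ± 0.08 (adjusted p = 0.0434). Without NT-3N replicate 3 all 3 kept their direction but missed the adjusted threshold, with limma adjusted p of 0.0641, 0.118 and 0.20. Socs3 and Stat3 also missed it without NT-3N replicate 2 (limma adjusted p = 0.0598 and 0.183). Over the alternatives described below, 15 values of these 3 genes lost the adjusted call and kept their direction. These losses were not confined to fits without an NT-3N array. Without Control replicate 1 the log2 difference of Stat3 was 0.76, and without Control replicate 2 it was 0.72.

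C1ra and C3 are shown by their promoters because both had an unadjusted limma p under 0.05 and because a STAT factor and C/EBP proteins are known to drive acute-phase genes. C4b, the gene with the smallest p, comes first in that order but has no entry in the promoter table, nor do Cfb and C2, and C3 is shown in its place. Both sequences are RefSeq GRCm38.p6, 5′ to 3′ on the gene's strand, from 250 bases before the start site to 50 bases from it. Capitals mark matches on either strand to TTCNNNGAA (STAT), TTGCNNAA (C/EBP) or the NF-kB consensus (3 G, any 5 bases and 2 C). The C1ra window is chr6:124512371-124512670 on the plus strand, and the C3 window is chr17:57228087-57228386 on the minus strand.
C1ra: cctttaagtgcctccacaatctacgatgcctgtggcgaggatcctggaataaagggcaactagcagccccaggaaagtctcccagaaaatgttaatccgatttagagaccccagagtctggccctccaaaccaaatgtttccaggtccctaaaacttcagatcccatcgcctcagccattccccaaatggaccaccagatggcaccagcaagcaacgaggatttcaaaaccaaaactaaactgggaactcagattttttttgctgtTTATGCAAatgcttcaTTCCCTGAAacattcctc
C3: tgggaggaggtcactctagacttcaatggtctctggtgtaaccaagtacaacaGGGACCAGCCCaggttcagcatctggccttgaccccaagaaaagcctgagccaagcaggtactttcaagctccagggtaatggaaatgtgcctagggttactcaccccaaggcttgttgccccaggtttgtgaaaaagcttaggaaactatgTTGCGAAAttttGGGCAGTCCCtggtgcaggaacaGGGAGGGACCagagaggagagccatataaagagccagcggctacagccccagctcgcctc

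In the C1ra window, counting from 0 at the start site, a C/EBP match lay at 16 to 23 and the STAT match TTCCCTGAA at 32 to 40, both after the start. The C3 window held the C/EBP match TTGCGAAA at -45 to -38 and 4 NF-kB matches, of which the pair at -197 to -188 and -196 to -187 overlapped in 1 capital run, with the others at -33 to -24 and -10 to -1. Of 32851 promoters of the same length in the table, 8.3% held the STAT letters, 10.8% the C/EBP letters and 50.8% the NF-kB letters. Of the other 4 genes with an entry, Cd55 had 4 NF-kB matches, C3ar1 and Cfp had 1 each, and C5ar1 had no match to any of the motifs. Such matches describe letters in these windows and are not binding sites.

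None of the 9 genes differed between NT-3N and Control at a limma adjusted p under 0.05, where 0.125% of all features were higher and 0.0182% lower; their adjusted p ran from 0.338 to 0.994. At an unadjusted p under 0.05, 3 of the 9 were higher, C4b, C1ra and C3, and none was lower, against 4.95% of all features higher and 4.67% lower. In 4 of the 9, these 3 and Cfp, every NT-3N array was above every Control array, as in 13.5% of all features, and no gene lay wholly below, as 14.8% of all features did. The log2 fold change was above 0 in 6 of the 9, against 46.4% of all features, and its median was 0.14 beside -0.02 over all features. In simulated data of the same size, limma recovered 33% of 2-fold changes, and the largest fold among the 9 genes was 1.77. In whole tissue, fewer cells of a type and less RNA per cell cannot be told apart.

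**Figure D1:**
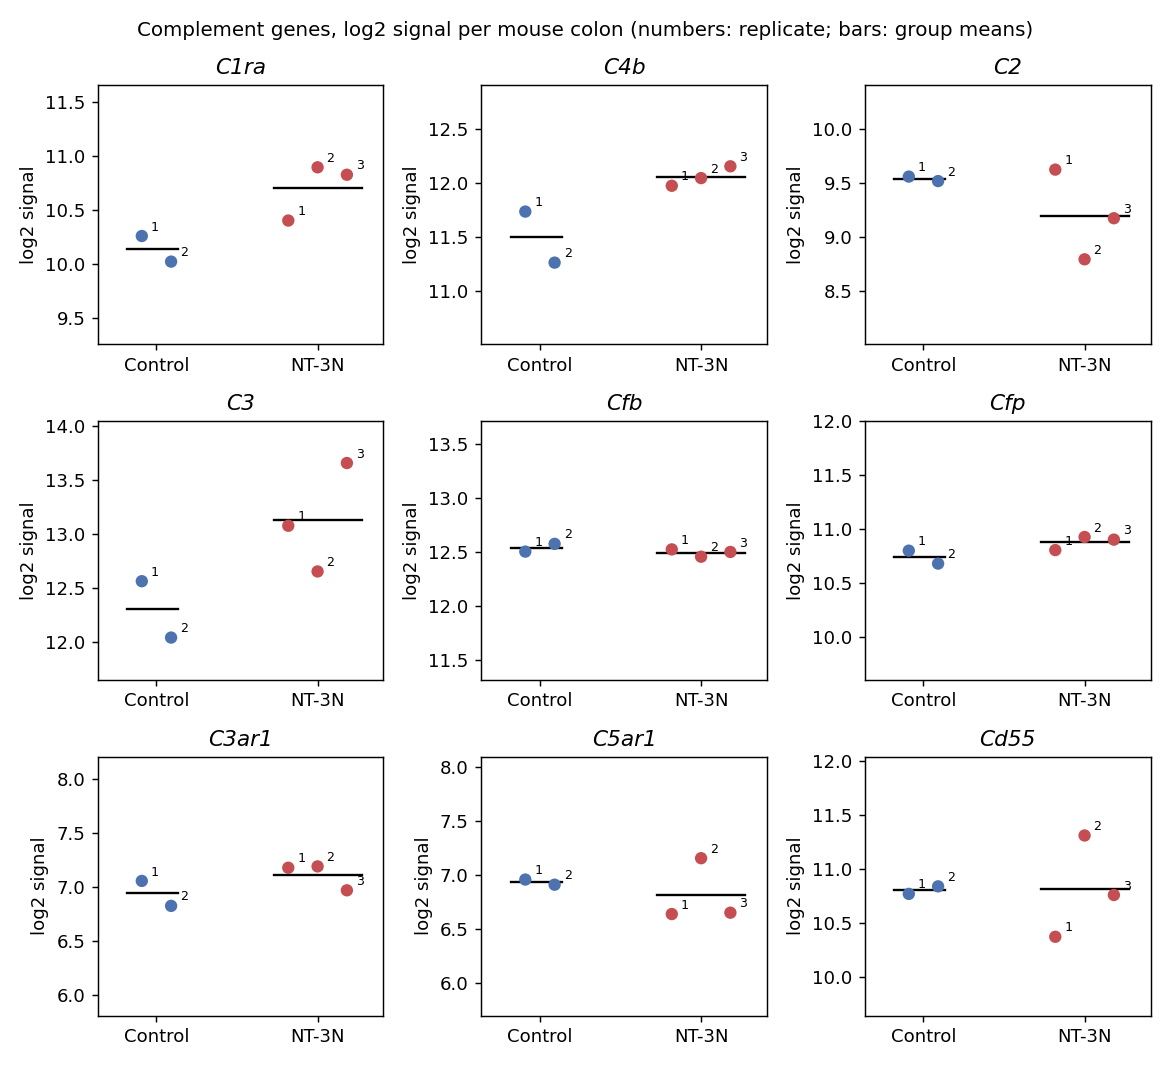
Log2 quantile-normalized signal of each of the 9 complement genes on the 2 Control and 3 NT-3N arrays, with each point 1 mouse numbered by replicate and each bar a group mean; the panels differ in their level but span the same number of log2 units. The NT-3N points of C1ra, C4b and C3 lie above both Control points, the points of Cfb lie close together on all 5 arrays, and those of C3, Cd55 and C2 spread most within NT-3N.

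Among the components of the classical and lectin routes, C4b encodes complement C4, which is cleaved and binds covalently to target surfaces. Its log2 signal was 11.73 and 11.26 on Control replicates 1 and 2, and 11.97, 12.04 and 12.15 on NT-3N replicates 1, 2 and 3. The NT-3N arrays lay close together and above both controls, which differed from each other more than the NT-3N arrays did. The log2 difference was 0.56 ± 0.15 (SE), a fold of 1.47 with a 95% interval of 1.14 to 1.90 (limma unadjusted p = 0.0090, adjusted p = 0.338). An exact two-sided permutation test gave p = 0.1, the smallest that the 10 splits of these arrays allow. A second, dimmer probe of C4b gave 8.81 and 8.51 in Control and 9.26, 9.51 and 9.48 in NT-3N. Its groups did not overlap either, and its log2 difference was 0.76 ± 0.14 (SE, adjusted p = 0.171 where every probe was tested). C4b and its near-identical copy C4a can share hybridisation on an array, so the values of the pair are uncertain as to which copy they come from.

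C1ra, which encodes the protease C1r that activates C1s, had log2 signals of 10.26 and 10.03 in Control and 10.41, 10.90 and 10.83 in NT-3N. NT-3N replicates 2 and 3 were well apart from the controls, while replicate 1 was only a little above Control replicate 1. The log2 difference was 0.57 ± 0.17 (SE), a fold of 1.48 with a 95% interval of 1.11 to 1.98 (limma unadjusted p = 0.0153, adjusted p = 0.394). The copy C1rb lies near C1ra on chromosome 6, and cross-hybridisation between these probes is uncertain too.

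C2, the protease that joins the large C4 fragment in cleaving C3, had a negative log2 difference that did not pass the test. It gave 9.56 and 9.52 in Control and 9.63, 8.80 and 9.18 in NT-3N. NT-3N replicate 1 was the highest array and replicates 2 and 3 the lowest, so the groups overlapped. The log2 difference was -0.34 ± 0.23 (SE), with a 95% interval of the fold of 0.534 to 1.17 (limma adjusted p = 0.685).

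C3, the protein on which all routes converge, had the largest log2 difference of the 9 genes and also a wide spread. Its log2 signal was 12.57 and 12.04 in Control and 13.08, 12.66 and 13.66 in NT-3N. The lowest NT-3N array, replicate 2, exceeded Control replicate 1 by far less than the NT-3N arrays differed among themselves. The log2 difference was 0.83 ± 0.30 (SE), a fold of 1.77 with a 95% interval of 1.07 to 2.93 (limma unadjusted p = 0.0309, adjusted p = 0.474). A second probe gave 11.63 and 11.20 in Control and 12.11, 11.66 and 12.54 in NT-3N, in the same order of arrays. On that probe replicate 2 of NT-3N stood only just above Control replicate 1, and the unadjusted p was 0.036.

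Cfb, which encodes factor B, the protease of the alternative route, had the narrowest range of the 9. It gave 12.50 and 12.57 in Control and 12.52, 12.45 and 12.50 in NT-3N. The groups overlapped, and the log2 difference of -0.05 ± 0.08 (SE) had a 95% interval of -0.23 to 0.14 (limma adjusted p = 0.872). Cfb and C2 are close neighbours on chromosome 17, with only Mir6972 listed between them in RefSeq GRCm38.p6, and C4b lies in the same stretch of the chromosome, yet their values by array differed as described. A second Cfb probe gave 10.39 and 10.41 in Control and 10.31, 10.32 and 10.33 in NT-3N, all below the controls by a small step (log2 difference -0.08 ± 0.09, SE).

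Cfp encodes properdin, which stabilises the alternative-route enzyme and is made mainly by leukocytes. It gave 10.80 and 10.68 in Control and 10.80, 10.93 and 10.90 in NT-3N. The groups did not overlap, but NT-3N replicate 1 and Control replicate 1 were equal at this rounding, and the log2 difference was 0.14 ± 0.09 (SE, limma adjusted p = 0.686). On a second Cfp probe, with 7.80 and 7.81 in Control and 7.79, 8.07 and 7.96 in NT-3N, the groups overlapped.

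The receptors for C3a and C5a had the lowest log2 signals of the 9 genes but were well above background on all 5 arrays. C3ar1, the C3a receptor of myeloid cells, gave 7.05 and 6.82 in Control and 7.18, 7.19 and 6.97 in NT-3N. The groups overlapped, and the log2 difference was 0.17 ± 0.15 (SE), with a fold interval of 0.870 to 1.46 (limma adjusted p = 0.754). C5ar1, the chemotactic C5a receptor of neutrophils and macrophages, gave 6.96 and 6.91 in Control and 6.64, 7.15 and 6.65 in NT-3N. Replicate 2 was the highest array and the other NT-3N arrays the lowest, and the log2 difference was -0.12 ± 0.20 (SE), with a fold interval of 0.658 to 1.29 (limma adjusted p = 0.873).

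Cd55 encodes the membrane inhibitor that speeds the decay of the C3-cleaving enzymes. It gave 10.77 and 10.84 in Control and 10.38, 11.31 and 10.76 in NT-3N. The NT-3N arrays lay on both sides of the controls, and the log2 difference was 0.01 ± 0.26 (SE), with a fold interval of 0.656 to 1.55 (limma adjusted p = 0.994). On all 3 Cd55 probes NT-3N replicate 1 was the lowest and replicate 2 the highest array. The other 2 probes had log2 differences of -0.13 ± 0.23 and -0.02 ± 0.24 (SE), so the sign was not shared among probes. Cd55b, a neighbouring near-identical copy named after its values were seen, gave 10.18 and 10.23 in Control and 9.78, 10.63 and 10.13 in NT-3N, with the same lowest and highest arrays as Cd55.

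Across the 9 genes, Control replicate 2 was the lowest array for 5 and NT-3N replicate 2 the highest for 5. The 15 probes of these genes were all well above background on all 5 arrays. Of the 5 genes with several probes, 4 had probes that shared a sign, with Cd55 the exception. After each gene was centred on its own mean over the 5 arrays, the profiles nearest to each other were those of Cfp and C3ar1, with a root mean square difference of 0.105 log2 units. Cfb and Cfp, both with small changes, followed at 0.124, and C1ra and C4b at 0.153. Over the 16736 other genes with a symbol and signal well above background on all 5 arrays, the profile most like that of C4b was Plek, which encodes pleckstrin, at 0.032. Inca1 (0.046), Slc49a4 (0.047), Scimp (0.057) and Serpina3h (0.061) came next. None of these 5 had a limma adjusted p under 0.05, and Plek had a log2 difference of 0.52 ± 0.15 (SE, adjusted p = 0.371).

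**Figure D2:**
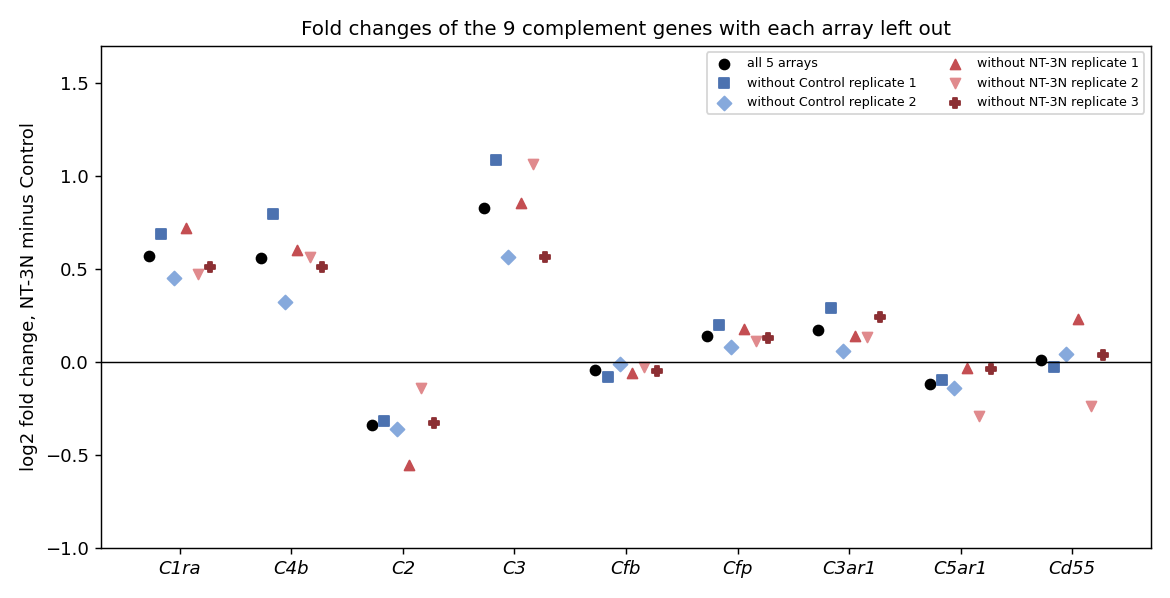
Log2 fold change of NT-3N minus Control (vertical axis) for each of the 9 complement genes, with all 5 arrays (black) and with each array left out in turn (coloured symbols). Without Control replicate 2 the value of C4b drops from 0.56 to 0.32 and that of C3 from 0.83 to 0.56, while the values of Cd55 lie on both sides of 0.

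The higher values of C4b, C1ra and C3 depended in part on Control replicate 2. Without this array no gene of the 9 had an unadjusted limma p under 0.05, and the log2 differences were 0.32 for C4b, 0.45 for C1ra and 0.56 for C3. Without NT-3N replicate 3 only C4b did, and without NT-3N replicate 1 only C1ra and C4b were higher while C2 was lower, with a log2 difference of -0.56.

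Of the remaining complement system, 41 further genes were listed and 34 could be tested. None passed a limma adjusted p under 0.05 in either direction; 5 were higher and 1 lower at an unadjusted p under 0.05, against 4.95% and 4.67% of all features. Of these, Cfi passed the filter on dim probes only through NT-3N and C8b, the lower gene, only through Control, and with signal above background required on all arrays 4 were higher and 0 lower. The log2 fold change was above 0 in 22 of the 34, with a median of 0.14, against 46.4% and -0.02 over all features. The groups did not overlap in 9, with 7 higher and 2 lower, where 13.5% of all features lay wholly higher and 14.8% wholly lower.

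Serping1, the C1 inhibitor that blocks C1r and C1s, gave 11.89 and 11.87 in Control and 12.17, 12.37 and 12.39 in NT-3N. Its controls were nearly equal and all NT-3N arrays lay above them, with a log2 difference of 0.43 ± 0.10 (SE, adjusted p = 0.249). For Serping1 the unadjusted p stayed under 0.05 in the alternatives that kept both Control arrays. Its adjusted p was above 0.05 in the fit described here and in each of those, the smallest being 0.0848 (limma, without NT-3N replicate 1). Without Control replicate 2 its log2 difference was 0.41. Cfi, the protease that degrades C3b and C4b, was well above background on no Control array and on 2 NT-3N arrays, with NT-3N higher by at least 1.74-fold (adjusted p = 0.393).

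C4a, the copy of C4b, gave 7.36 and 6.93 in Control and 7.71, 7.76 and 7.72 in NT-3N. As for C4b, the NT-3N arrays lay close together above 2 controls that differed from each other, and the log2 difference was 0.58 ± 0.16 (SE, limma adjusted p = 0.352). C5ar2, a second C5a receptor that does not signal through G proteins, gave 7.92 and 7.81 in Control and 8.62, 8.17 and 8.19 in NT-3N. All NT-3N arrays were above the controls, unlike those of C5ar1, with a log2 difference of 0.46 ± 0.17 (SE, adjusted p = 0.481); the difference between the receptors was not tested. C8b, a chain of the lytic complex, was well above background on both Control arrays and on no NT-3N array, with NT-3N lower by at least 1.15-fold (adjusted p = 0.484).

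**Figure D3:**
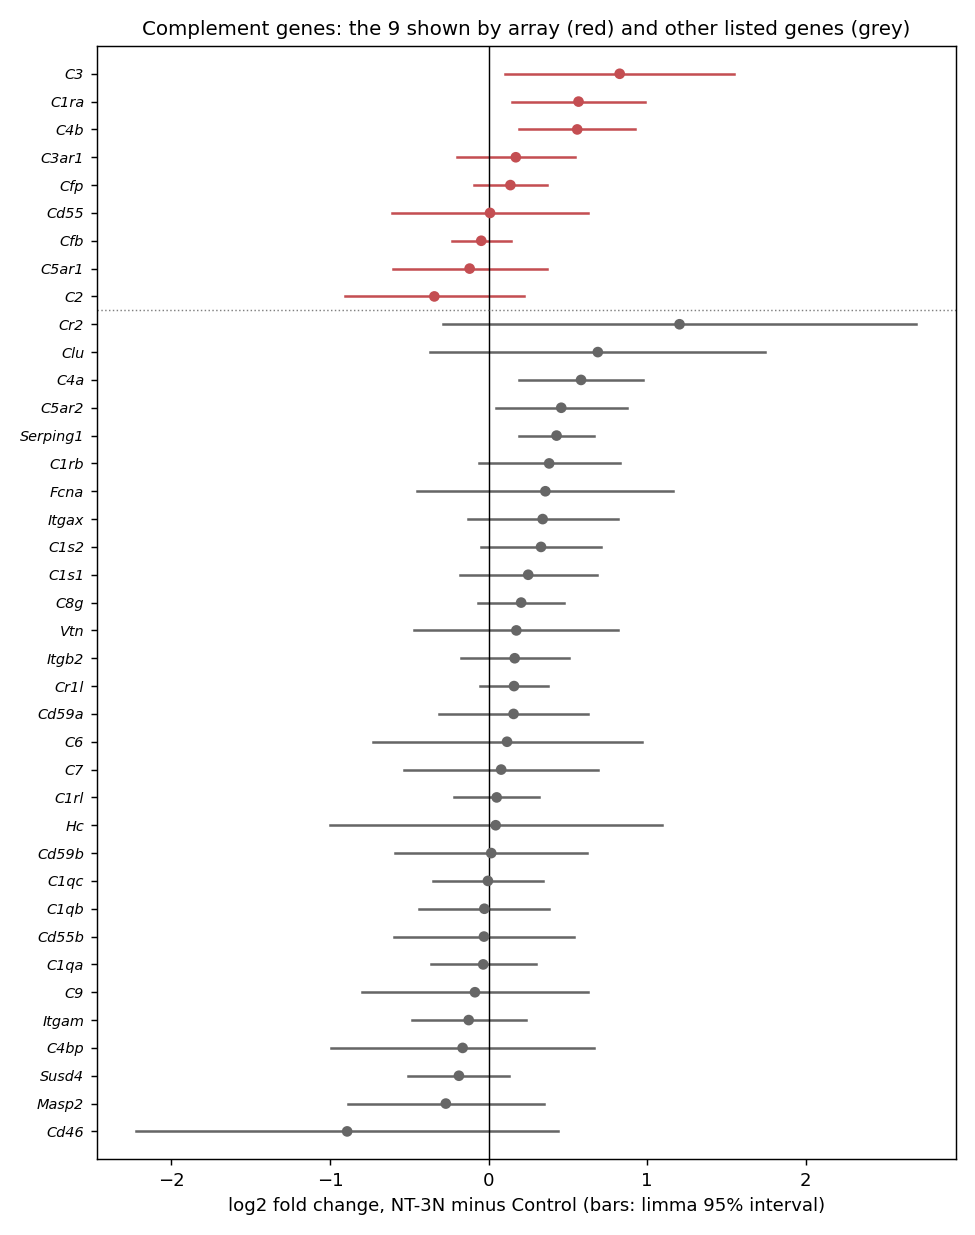
Log2 fold change of NT-3N minus Control (horizontal axis) with limma 95% intervals for the 9 complement genes (red) and for the other tested complement genes that were well above background on all 5 arrays, except Cfd, whose interval is too wide for the axis, and 1 gene that is not shown (grey). The intervals of C3, C1ra and C4b, and of C4a, C5ar2 and Serping1, lie above 0, and those of the remaining genes plotted cross 0.

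The partners of C1r were set beside C1ra. C1s1 and C1s2 encode forms of C1s; C1s1 gave 11.53 and 11.33 in Control and 11.34, 11.89 and 11.82 in NT-3N, and C1s2 gave 11.13 and 10.99, then 11.11, 11.58 and 11.49. C1rb, named after its values were seen, gave 7.11 and 6.72 in Control and 7.10, 7.44 and 7.36 in NT-3N. In all 3, as in C1ra, NT-3N replicates 2 and 3 were the highest arrays, but NT-3N replicate 1, which was above both controls in C1ra, lay within their range. The 6 fibroblast markers, Col1a1, Col3a1, Pdgfra, Dcn, Lum and Pdpn, were all well above background on all 5 arrays, and their summed linear signal was 50832 and 44103 in Control and 45120, 66304 and 58744 in NT-3N. The sum was likewise highest on NT-3N replicates 2 and 3, as were Dcn, Lum and Pdpn. In Dcn and Pdpn, NT-3N replicate 1 was also above both controls, only just in Dcn. Pdpn gave 10.33 and 10.66 in Control and 11.67, 12.13 and 12.16 in NT-3N. Col1a1, Col3a1 and Pdgfra were highest on NT-3N replicate 2, but a Control array exceeded NT-3N replicate 3 in each. The part of the fibroblast content in the values of the C1r and C1s genes was not tested.

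C1qa, C1qb and C1qc, the chains of C1q, which macrophages make, were set beside them; C1qa and C1qb were named after their values were seen. C1qc gave 11.64 and 11.68 in Control and 11.39, 11.83 and 11.74 in NT-3N, with a log2 difference near 0 (limma adjusted p = 0.995). All 3 chains were lowest on NT-3N replicate 1 and highest on replicate 2. The 6 macrophage markers, all well above background on all 5 arrays, had a summed signal of 9335 and 8686 in Control and 7448, 10541 and 10382 in NT-3N. This sum was also lowest on replicate 1 and highest on replicate 2 of NT-3N, as were Cd55 and Cd55b. Of the single markers, Adgre1 and Cd163 had this order, while Csf1r and Cx3cr1 were lowest on replicate 1 but highest on replicate 3 of NT-3N. Cd68 and Mrc1 were lowest on Control replicate 2. Mrc1 gave 9.10 and 8.84 in Control and 9.41, 9.67 and 9.43 in NT-3N. This order was not particular to macrophage markers. The fibroblast markers Col1a1, Col3a1 and Lum and the endothelial marker Emcn were also lowest on replicate 1 and highest on replicate 2 of NT-3N. The part of the macrophage, fibroblast or endothelial content in the values of the C1q chains, Cd55 and Cd55b was not tested.

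Control replicate 2, the lowest array for C3 and C4b, was also low in markers of B cells and follicles. The 8 markers were all well above background on all 5 arrays, and their summed signal was 5040 and 1620 in Control and 5132, 4483 and 5413 in NT-3N. Cr2, the C3d receptor of B cells and follicular dendritic cells, named after its values were seen, gave 9.66 and 7.31 in Control and 9.65, 9.51 and 9.90 in NT-3N. Clu, which encodes clusterin, an inhibitor of the lytic complex also made by follicular dendritic cells, gave 13.55 and 12.05 in Control and 13.47, 13.11 and 13.88 in NT-3N. In both, Control replicate 2 alone was far below, and Control replicate 1 lay within the NT-3N range. C3 and C4b differed from these in that Control replicate 1 was also below every NT-3N array; the part of the follicle content in their values was not tested.

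**Figure D4:**
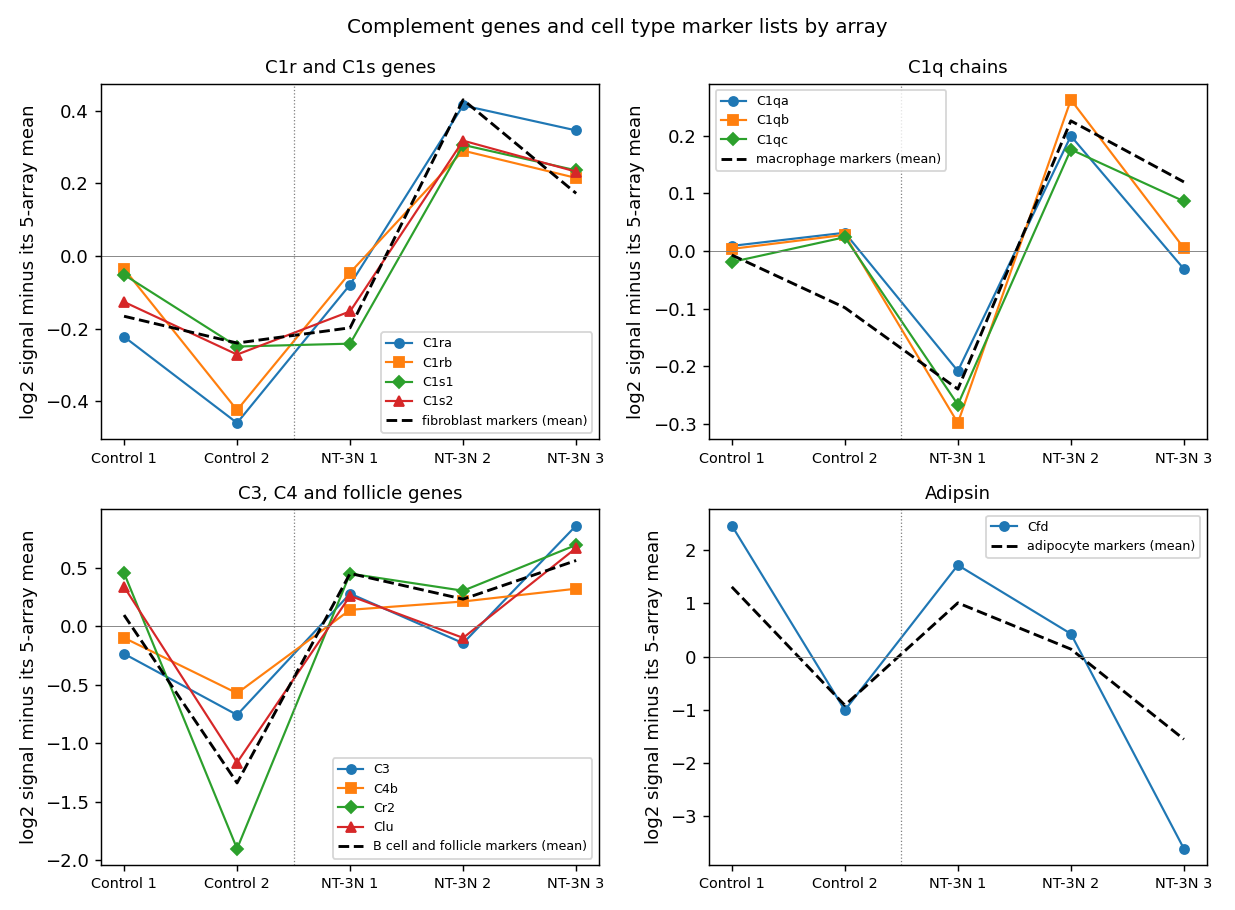
Log2 signal minus its mean over the 5 arrays (vertical axis) on each array for complement genes (coloured symbols) and, as dashed black lines, the mean over the markers of a cell type, with Control and NT-3N parted by a dotted line. Fibroblast markers and the C1r and C1s genes are highest on NT-3N replicates 2 and 3, macrophage markers and C1q chains are lowest on NT-3N replicate 1, follicle markers, C3, C4b, Cr2 and Clu are lowest on Control replicate 2, and adipocyte markers and Cfd vary within both groups.

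Cfd, which encodes adipsin, the protease that cleaves factor B and a product of fat cells, was the most variable gene of the system and was named after its values were seen. It gave 13.40 and 9.93 in Control and 12.65, 11.36 and 7.33 in NT-3N, with full overlap of the groups. The summed signal of the 4 adipocyte markers, of which 3 were well above background on all 5 arrays, was 7870 and 5077 in Control and 6280, 3104 and 2091 in NT-3N. Both were highest on Control replicate 1 and lowest on NT-3N replicate 3. Most of the sum came from Cidec, which had this order, as did Adipoq. Lep was highest on NT-3N replicate 1, and Plin1 was lowest on Control replicate 2. The part of the adipocyte content in the values of Cfd was not tested.

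Markers of other cells that make complement or carry its receptors gave the following. Of 8 neutrophil markers, 4 could be tested, with a summed signal of 77021 to 78021 in Control and 64061 to 77478 in NT-3N. Nearly all of it came from Csf3r, and whether that probe reports neutrophils is not known here. Csf3r and Mmp8 overlapped between the groups. S100a8, well above background on 3 of the 5 arrays, gave 2.57 and 2.51 in Control and 6.21, 4.28 and 5.15 in NT-3N. Its Control values were at the dim end of the scale and no bound was set, so the size of its difference is not known. S100a9 was well above background on no Control array and on all 3 NT-3N arrays, at least 13.9-fold higher (limma adjusted p = 0.0619). Its probe passed the filter on dim probes only through NT-3N, so its test cannot support a difference. C5ar1, which neutrophils carry, did not have the pattern of S100a9, and this was not tested. The hepatocyte marker Alb, defining for the main source of plasma complement, was near the dim end of the scale, between 4.47 and 5.89 in log2 signal, and was highest on NT-3N replicate 2. The summed hepatocyte list ranged from 1055 to 1814 in Control and from 1159 to 1761 in NT-3N. The endothelial sum ranged from 1661 to 1767 in Control and from 1644 to 1951 in NT-3N, and the smooth muscle sum from 257561 to 277430 and from 194255 to 247007.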

How the data were processed

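The authors extracted spot values from 5 one-colour arrays with Feature Extraction 11.0.1.1, and the deposited intensity is a background-subtracted, detrended processed signal not scaled between arrays. The authors' deposited log2 table of 37380 probes correlated on every array at 0.99998 or above with the quantile-normalized log2 processed signal and served as an alternative; genome coordinates of the array are not given, since its header names another build than the gene table.

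Control spots and outlier spots (69 to 184 of 59305 per array) were left out, processed signal was log2-transformed, spots were averaged per probe, and the arrays were quantile-normalized. Probes well above background on at least 2 of 5 arrays, with values on both Control and at least 2 NT-3N arrays, were kept. Accessions without versions, matched to RefSeq GRCm38.p6, named 32994 of 56605 probes, and the brightest probe stood for a gene, with 32917 features left. NT-3N was compared with Control in limma 3.58.1 (R 4.3.3), with lmFit and a trended eBayes; tests were two-sided and p-values were adjusted over all features by Benjamini-Hochberg. The methods' local-pooled-error test was written as an alternative. Alternatives also covered scaling, background correction (normexp on the median spot signal), filters, probes per gene, the variance trend, the replicate number as a block, and leaving out each array.

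A bound ("at least") sets the brighter group's mean against the mean of, per array, its own signal in the dim group or that array's lowest signal of any probe well above background, whichever is higher. The exact permutation test has 10 splits and a smallest p of 0.1, and the small number of arrays limits the precision. Each array is labelled as a separate sample of its group.

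The genes and lists were chosen with earlier results of these data known. All 9 genes were named; of 41 further complement genes, those with an unadjusted p under 0.05 and the 6 of largest mean signal were named, and others are marked as named after their values were seen. Of the further genes, 1 is counted but not reported here. On simulated data for NT-3N against Control, with 32910 features, 5 runs and 200 changed features, limma called 33% of the 2-fold and 74.8% of the 4-fold changes, and 3.75% of all calls were false; for the local-pooled-error test these were 43.4%, 84.6% and 52.6%.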

Additional observations from a re-analysis of the deposited data

How the results depend on the processing

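Over 15 alternatives, the direction of C4b, C1ra, C3, C2, Cfb, Cfp, C3ar1 and C5ar1 did not change, and the unadjusted p was under 0.05 in 14 of them for C4b, 12 for C1ra and 10 for C3. The adjusted p ranged from 0.171 to 0.827 for C4b, from 0.0924 to 0.872 for C1ra and from 0.00548 to 0.901 for C3. The count at an adjusted p under 0.05 was 1 of the 9 genes (C3) and 1 further complement gene (Clu) with the local-pooled-error test, whose calls were false in 52.6% of cases in simulated data. Further complement genes lower at an unadjusted p under 0.05 numbered 0 in the local-pooled-error test, with the replicate block, with the deposited values and where signal above background was required on all arrays. With each array left out, the number of the 9 genes higher at an unadjusted p under 0.05 ran from 0 (without Control replicate 2) to 3 and lower from 0 to 1 (C2, without NT-3N replicate 1); for the further genes these ran from 3 to 10 and from 0 to 2, and 0 to 1 were higher at an adjusted p (Cr2, without Control replicate 1). Where 1 Control array is left, its spread is taken to be that of the NT-3N group. The signs of small values turned: C1qc was 0.014 with scaling to the 75th percentile, 0.031 with normexp and 0.084 in the local-pooled-error test, and ran from -0.093 to 0.13 with each array left out. Cd55 was -0.045 in the local-pooled-error test, -0.048 over the mean of probes and -0.13 with every probe tested, and ran from -0.24 to 0.23. Leaving out arrays also turned Cd55b (-0.25 to 0.17), C1qa (-0.14 to 0.064), C1qb (-0.16 to 0.12), Itgam (-0.24 to 0.014) and Clu (-0.061, without Control replicate 2, to 1.44). What caused these was not tested. Of the other values of single genes, 413 kept direction and side of the adjusted threshold, 3 gained a call (C3, Clu and Cr2, named above), and 15 lost one, all of them of Socs3, Stat3 or Serpina3n, which kept their direction.

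Same-numbered arrays deviated from their group means with a correlation of 0.13 (number 1) and 0.04 (number 2) over only 2 pairs. The deviations of the 2 Control arrays mirror each other, so this check cannot decide whether the numbers pair the samples. With the replicate number as a block, 2 of the 9 genes, C4b (0.51) and C3 (0.56), were higher at an unadjusted p under 0.05, C1ra was at 0.51, and no feature passed the adjusted threshold. Dim probes limit Cfi, C8b and S100a9, which have only bounds, and S100a8, for which no bound was set.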

Other observations

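Itgam, a chain of the C3 fragment receptor CR3 and among the brightest complement genes, had 2 tested probes that differed widely in signal. The brighter gave log2 signals of 15.40 and 15.28 in Control and 15.45, 14.94 and 15.26 in NT-3N, and the dimmer gave 6.75 and 6.17, then 6.26, 6.10 and 6.11. NT-3N replicate 2 was the lowest array on both probes, but on the dimmer probe it was nearly equal to NT-3N replicate 3. On that probe Control replicate 1 was the array that stood apart. Which of the probes reports Itgam is not known here.

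Cr1l, a rodent membrane inhibitor, gave 12.76 and 12.72 in Control and 12.79, 12.97 and 12.95 in NT-3N, with groups that did not overlap (log2 difference 0.16 ± 0.09, SE; limma adjusted p = 0.623). C8g, a chain of the lytic complex named after its values were seen, gave 7.84 and 7.86 in Control and 8.07, 8.06 and 8.03 in NT-3N. The arrays of C8g lay close together within each group and apart between them, but the log2 difference of 0.21 ± 0.11 (SE) had a limma adjusted p of 0.618. Of the listed genes, 7 had no probe that passed the filter: C8a, Csmd1, Fcnb, Masp1, Mbl1, Mbl2 and Vsig4. Among them, Fcnb, Mbl1 and Mbl2 are lectins and Masp1 is a protease of the lectin route. The lectin Fcna and the protease Masp2 of this route, named after their values were seen, each had a tested probe (limma adjusted p = 0.764 and 0.768).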
